A study of Mus musculus with 6 samples.

Results

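The 10 genes described here encode the enzymes of serine synthesis and of the folate-bound one-carbon pathway that serine feeds. They are *Phgdh*, *Psat1* and *Psph* for serine synthesis, *Shmt1*, *Mthfd1* and *Aldh1l1* for the folate reactions of the cytosol, and *Shmt2*, *Mthfd2*, *Mthfd1l* and *Aldh1l2* for those of the mitochondrion. They are 10 of the 36144 gene symbols in the gene table of the series. The list was chosen by the measured genotype difference of *Phgdh* and *Psat1*, which had been seen to be lower in Cebpa_ASKO fat, so the genotype difference of these 2 genes is a description and carries no test here. The other 8 genes are given with their place in a test over all genes.

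RNA was measured in whole inguinal white adipose tissue (iWAT), the subcutaneous fat pad of the groin, with lymph nodes removed, from 3 Cebpa_fl/fl and 3 Cebpa_ASKO mice. All 6 were 10-week-old, randomly fed females on a C57BL6/J background, each gave 1 poly-A RNA library, and all carry the label of batch 1. Both genotypes have *Cebpa*, the gene of the adipocyte transcription factor C/EBPα, flanked by loxP sites. Cebpa_fl/fl mice lack Cre (Cebpa_fl/fl; AdipoQ-Cre-), and Cebpa_ASKO mice carry it (Cebpa_fl/fl; AdipoQ-Cre+). Because the adiponectin promoter drives Cre, deletion takes place in cells that have started to express adiponectin, late in fat cell differentiation, and the other cells of the pad keep the gene. *Cebpa* itself was at 448, 465 and 498 CPM (a count scaled to the library's size, here with TMM normalization) in the 3 Cebpa_fl/fl libraries and at 37.7, 45.8 and 37.2 CPM in the 3 Cebpa_ASKO libraries, in keeping with the labels of all 6 (log2 fold change -3.55, SE 0.131, adjusted p = 0.000163 by edgeR's quasi-likelihood test).

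Serine is made from the glycolytic intermediate 3-phosphoglycerate in a short branch. PHGDH oxidises it, PSAT1 transfers an amino group from glutamate to the product, and PSPH removes the phosphate to leave serine. The SHMT enzymes then split serine into glycine and a one-carbon unit on tetrahydrofolate. Cytosol and mitochondrion each have a set of enzymes that oxidise and reduce this unit, which is needed for purines, thymidylate and methionine, and mitochondria can export it as formate. ALDH1L1 and ALDH1L2 end the path by oxidising 10-formyltetrahydrofolate to carbon dioxide, with NADPH as the second product. ALDH1L1 is widely used as a marker of astrocytes and is abundant in liver. In other cells *PHGDH*, *PSAT1*, *SHMT2* and *MTHFD2* are known targets of the stress-induced factor ATF4.

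The genes lie at separate places in the mouse genome (GRCm38, GENCODE M21), and all 10 are protein-coding. *Psph* is on the minus strand of chr5:129765558-129787449, *Shmt1* on the minus strand of chr11:60788104-60811718, and *Mthfd1* on the plus strand of chr12:76255298-76319803. *Mthfd2* is on the minus strand of chr6:83305691-83325908, *Mthfd1l* on the plus strand of chr10:3973118-4167081, and *Aldh1l2* on the minus strand of chr10:83487450-83534140. *Phgdh* is on the minus strand of chr3:98313170-98339990, *Psat1* on the minus strand of chr19:15904678-15947337, and *Aldh1l1* on the plus strand of chr6:90486427-90600203. The promoters of these 3 genes are shown because they were the members whose Cebpa_ASKO libraries all lay below the Cebpa_fl/fl libraries, and that of *Shmt2*, on the minus strand of chr10:127517123-127522444, because its libraries were apart in the other direction. Each is the stretch of 250 bases before the RefSeq start site (build GRCm38.p6), read 5′ to 3′ on the gene's strand. Capitals mark every match, on either strand, to 6 short motifs. These were TTGCGCAA and the wider TTGCNNAA of C/EBP factors (the first is a case of the second), TGATGNAA of C/EBP-ATF pairs, TGACNNNGC of the antioxidant response, the E-box CACGTG, and the CCAAT box bound by NF-Y.
Phgdh, chr3:98339970-98340219, minus strand: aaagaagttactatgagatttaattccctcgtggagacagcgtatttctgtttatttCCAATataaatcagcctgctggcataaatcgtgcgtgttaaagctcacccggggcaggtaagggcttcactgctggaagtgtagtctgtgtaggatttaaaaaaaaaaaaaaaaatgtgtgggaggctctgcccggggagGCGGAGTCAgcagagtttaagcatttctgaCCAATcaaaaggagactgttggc
Psat1, chr19:15925060-15925309, minus strand: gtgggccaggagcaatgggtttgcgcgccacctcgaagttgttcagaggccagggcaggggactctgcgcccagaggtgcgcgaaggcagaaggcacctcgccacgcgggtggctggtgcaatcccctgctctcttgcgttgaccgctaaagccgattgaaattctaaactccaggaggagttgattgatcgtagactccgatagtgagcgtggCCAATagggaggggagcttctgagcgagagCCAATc
Aldh1l1, chr6:90550543-90550792, plus strand: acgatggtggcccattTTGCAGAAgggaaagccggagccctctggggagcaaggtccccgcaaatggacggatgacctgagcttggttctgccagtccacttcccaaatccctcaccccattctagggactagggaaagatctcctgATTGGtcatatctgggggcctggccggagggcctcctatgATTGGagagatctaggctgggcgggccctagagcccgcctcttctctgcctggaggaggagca
Shmt2, chr10:127522445-127522694, minus strand: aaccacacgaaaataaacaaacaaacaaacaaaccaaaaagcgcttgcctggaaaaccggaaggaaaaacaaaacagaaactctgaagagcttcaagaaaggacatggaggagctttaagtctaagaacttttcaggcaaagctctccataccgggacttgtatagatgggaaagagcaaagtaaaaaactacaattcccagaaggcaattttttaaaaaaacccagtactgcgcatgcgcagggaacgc

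In the *Phgdh* stretch the capitals are CCAAT at -193 to -189 and at -23 to -19, counted from the start site, and the antioxidant motif at -53 to -45 on the other strand. The last 21 bases of that stretch belong to the first exon of the GENCODE transcript Phgdh-201. In *Psat1* they are CCAAT at -36 to -32 and at -6 to -2. *Aldh1l1* had the wider C/EBP motif at -234 to -227 and CCAAT, on the other strand, at -103 to -99 and at -63 to -59. *Shmt2* had no match. These matches are letters in a window and do not show that a factor binds there.

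RefSeq windows, which run from 250 bases before to 50 after the start site, were at hand for 9 of the 10 genes. *Aldh1l2* had none. Of these 9, 0 held TTGCGCAA, against 0.183% of all 32851 windows, and 1, *Aldh1l1*, held TTGCNNAA, against 10.8%. None of the 9 held TGATGNAA or CACGTG, which 3.97% and 7.15% of all windows hold. TGACNNNGC was in 2, *Phgdh* and *Psph*, against 12.4%. CCAAT was in 7, all except *Shmt2* and *Mthfd1l*, against 37.4%. For *Psat1*, only the window nearest the start of Psat1-201 was counted. Another RefSeq window of *Psat1*, with its start site 437 bases further on, held no match. All 250 bases before the start site lie in annotated exons for *Psph* and *Mthfd1*, and 49 of them for *Shmt1*.

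The serine synthesis genes come first. *Phgdh*, whose product catalyses the first step, was at 103, 165 and 107 CPM in Cebpa_fl/fl iWAT and at 26.2, 24.9 and 15.5 CPM in Cebpa_ASKO iWAT. The lowest Cebpa_fl/fl library was 3.92 times the highest Cebpa_ASKO library. The means were 125 ± 34.9 and 22.2 ± 5.84 CPM (SD, n = 3 each), so that 17.7% of the Cebpa_fl/fl level was left. The log2 fold change was -2.50 (SE 0.272, 95% interval -3.15 to -1.85). Since *Phgdh* and *Psat1* chose the list by this difference, their intervals are not corrected for that choice and are no test. The spread among the controls came from library 2, which had the highest value. Since whole tissue was measured, the parts of fewer adipocytes and of less *Phgdh* RNA in each adipocyte cannot be told apart. Likewise, the parts of cell numbers and of RNA in each cell cannot be told apart for any gene below.

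*Psat1*, for the second step, was at 56.9, 74.7 and 67.3 CPM in Cebpa_fl/fl and at 26.8, 22.5 and 26.2 CPM in Cebpa_ASKO. The genotypes were again apart, but by less than for *Phgdh*, with 38% of the Cebpa_fl/fl mean left (66.3 ± 8.94 against 25.2 ± 2.32 CPM). Its log2 fold change was -1.40 (SE 0.128, 95% interval -1.70 to -1.09). Within each library, the ratio of *Phgdh* to *Psat1* TPM (a level per transcript length, with the same sum in every library) was 2.12, 2.71 and 2.02 in Cebpa_fl/fl and 1.23, 1.37 and 0.922 in Cebpa_ASKO. The first step thus stood clearly above the second in the controls and about level with it in Cebpa_ASKO.

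*Psph*, for the last step, was at 34.6, 17.9 and 38.4 CPM in Cebpa_fl/fl and at 18.2, 16.7 and 17.6 CPM in Cebpa_ASKO. The genotypes overlapped because Cebpa_fl/fl library 2 lay at the Cebpa_ASKO level, whereas the Cebpa_ASKO libraries spanned a narrow range. The log2 fold change of -0.79 (SE 0.269, 95% interval -1.43 to -0.15) did not pass the threshold of 0.05 (adjusted p = 0.168, edgeR quasi-likelihood test). Without Cebpa_fl/fl library 2 it was -1.07 and passed (adjusted p = 0.00329, edgeR). That library had the highest *Phgdh* and *Psat1* of the 6 and the lowest *Psph* of the controls, so the 3 genes did not vary together among the controls.

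**Figure D1:**
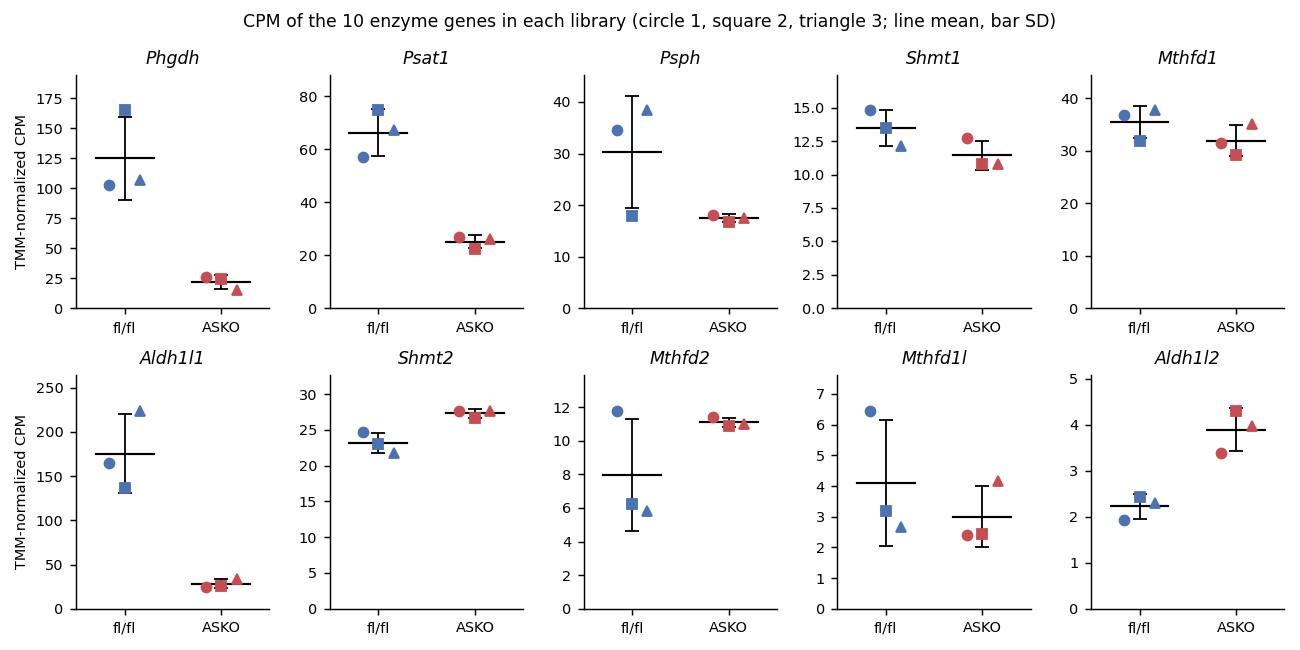
Points give the TMM-normalized CPM of each of the 10 genes in the 3 Cebpa_fl/fl libraries (blue) and the 3 Cebpa_ASKO libraries (red), with a symbol for each library number, the mean as a line and the SD as a bar. Each panel has its own axis from 0. *Phgdh*, *Psat1* and *Aldh1l1* show no overlap with Cebpa_ASKO lower, and *Shmt2* and *Aldh1l2* none with Cebpa_ASKO higher.

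The cytosolic folate genes did not move together. *Aldh1l1*, which ends the cytosolic path by releasing the one-carbon unit as carbon dioxide, was at 165, 137 and 224 CPM in Cebpa_fl/fl and at 24.9, 25.5 and 34.1 CPM in Cebpa_ASKO. The lowest control was 4.02 times the highest Cebpa_ASKO library. Its mean was 175 ± 44.3 CPM in the controls and 28.2 ± 5.11 CPM in Cebpa_ASKO (SD, n = 3 per genotype), and it fell with a log2 fold change of -2.64 (SE 0.222, 95% interval -3.17 to -2.11, adjusted p = 0.00169, edgeR quasi-likelihood test). Its interval overlapped that of *Phgdh*, which is only a description, over most of its length. *Aldh1l1* passed the threshold under all 15 alternative analyses, with log2 fold changes from -2.81 to -2.42.

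*Shmt1*, the cytosolic serine hydroxymethyltransferase, was at 14.8, 13.5 and 12.1 CPM in Cebpa_fl/fl and at 12.7, 10.8 and 10.8 CPM in Cebpa_ASKO. Its log2 fold change was -0.24, with a 95% interval of -0.55 to 0.07 (adjusted p = 0.383, edgeR). *Mthfd1*, the trifunctional cytosolic enzyme that interconverts the folate-bound forms, was at 36.8, 31.9 and 37.7 CPM and at 31.4, 29.2 and 35.0 CPM. Its log2 fold change was -0.15, with an interval of -0.41 to 0.10 (adjusted p = 0.501, edgeR). For both genes the libraries of the genotypes overlapped, and the intervals leave room for modest falls but not for one of the size of *Aldh1l1*. The ratio of *Aldh1l1* to *Mthfd1* TPM was 4.07, 4 and 5.59 in the controls and 0.719, 0.852 and 0.945 in Cebpa_ASKO, so that the order of the pair was turned in every library.

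**Figure D2:**
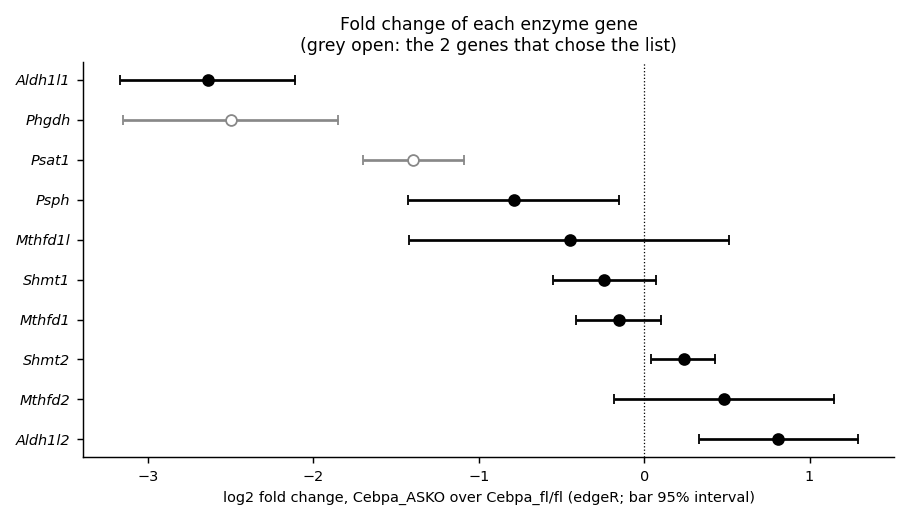
Circles show the log2 fold change of each gene, Cebpa_ASKO over Cebpa_fl/fl, from the edgeR fit over all tested genes, and bars its 95% interval, with 3 libraries per genotype. The 2 open grey circles are *Phgdh* and *Psat1*, whose difference led to the list, so that their bars are no test. Of the other 8 only *Aldh1l1*, at -2.64, passed the threshold of 0.05.

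None of the 4 mitochondrial genes passed the threshold by edgeR, although 2 had an unadjusted p below 0.05 and 1 passed by DESeq2. *Shmt2*, which makes the mitochondrial one-carbon unit from serine, was at 24.7, 23.0 and 21.8 CPM in Cebpa_fl/fl and at 27.7, 26.6 and 27.7 CPM in Cebpa_ASKO. All Cebpa_ASKO libraries lay above all controls, but by little (log2 fold change 0.24, SE 0.082, 95% interval 0.04 to 0.43, adjusted p = 0.172, edgeR). The main coding transcript Shmt2-201 overlapped, at 10.259, 10.739 and 10.509 TPM against 8.444, 11.604 and 11.45 TPM. Another coding transcript, Shmt2-206, was apart and higher, at 1.652, 2.246 and 0.767 TPM against 5.591, 3.213 and 4.604 TPM. The retained-intron transcripts Shmt2-202 and Shmt2-203 were also apart and higher. The genotypes were thus apart for the gene but not for its main coding transcript. Within libraries, the ratio of *Shmt2* to *Shmt1* TPM was 1.63, 1.59 and 1.79 in Cebpa_fl/fl and 1.79, 2.30 and 2.45 in Cebpa_ASKO. The mitochondrial form was thus the more abundant in all 6. The highest control and the lowest Cebpa_ASKO library were nearly level in TPM, and in CPM the ratios were apart, from 1.67 to 1.8 and from 2.17 to 2.57.

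*Mthfd2*, the mitochondrial dehydrogenase and cyclohydrolase that is low in most resting adult tissues and high in proliferating cells, was at 11.8, 6.21 and 5.83 CPM in Cebpa_fl/fl and at 11.4, 10.9 and 11 CPM in Cebpa_ASKO. The Cebpa_ASKO libraries agreed closely, and the overlap came from Cebpa_fl/fl library 1. The log2 fold change was 0.48 (SE 0.278, 95% interval -0.18 to 1.15, adjusted p = 0.404, edgeR). Without Cebpa_fl/fl library 1 it was 0.88 and passed the threshold (adjusted p = 0.0334, edgeR).

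*Mthfd1l*, which releases formate in the mitochondrion, was at 6.46, 3.20 and 2.67 CPM in Cebpa_fl/fl and at 2.41, 2.43 and 4.15 CPM in Cebpa_ASKO. Cebpa_fl/fl library 1 was again the highest. The log2 fold change of -0.45 had an interval of -1.42 to 0.51 (adjusted p = 0.622, edgeR), and without that library it was 0.03 (adjusted p = 0.982, edgeR), so no direction can be given for this gene.

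Cebpa_fl/fl library 1 stood apart from the other 5 in lymphocyte transcripts. The 7 lymphocyte markers used here summed to 213 CPM there, to 14.4 and 7.71 CPM in the other controls, and to between 5.67 and 8.51 CPM in Cebpa_ASKO. The B cell markers *Cd79a* and *Ms4a1* were at 79.0 and 39.4 CPM in it and *Cd8a* of cytotoxic T cells at 19.2 CPM, although lymph nodes were removed, and none of the 7 was at 0 in any library. The 7 markers of proliferating cells summed to 70.2 CPM there, to 49.5 and 25.9 CPM in the other controls and to between 28.3 and 36.4 CPM in Cebpa_ASKO. *Mthfd2* was 1.95 times and *Mthfd1l* 2.2 times the mean of the other controls in that library, while *Psat1* was 0.801 times and *Aldh1l1* 0.917 times it. The part of lymphocytes in the *Mthfd2* and *Mthfd1l* values was not tested.

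**Figure D3:**
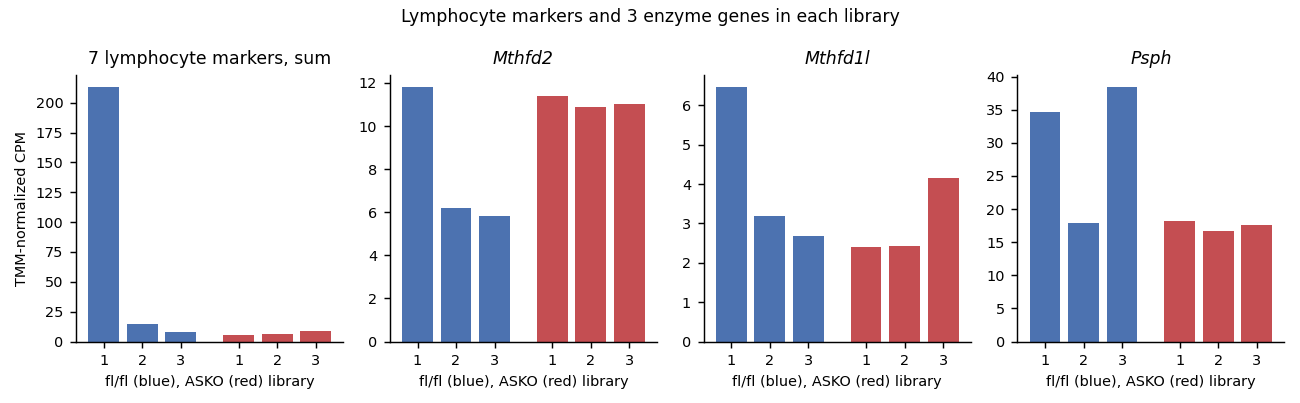
Bars show TMM-normalized CPM in each of the 3 Cebpa_fl/fl libraries (blue) and 3 Cebpa_ASKO libraries (red) for the sum of 7 lymphocyte markers and for *Mthfd2*, *Mthfd1l* and *Psph*. Cebpa_fl/fl library 1 is the highest for the markers, at 213 CPM, and for *Mthfd2* and *Mthfd1l*, and Cebpa_fl/fl library 2 is the control at the Cebpa_ASKO level for *Psph*.

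*Aldh1l2*, the mitochondrial counterpart of *Aldh1l1*, was at 1.92, 2.44 and 2.31 CPM in Cebpa_fl/fl and at 3.39, 4.31 and 3.97 CPM in Cebpa_ASKO. In CPM the genotypes were apart, with Cebpa_ASKO higher (log2 fold change 0.81, SE 0.202, 95% interval 0.33 to 1.29), but the threshold was not passed (adjusted p = 0.0778, edgeR). DESeq2 gave it an adjusted p of 0.00665. In TPM it was at 1.16, 0.859 and 0.706 against 0.979, 1.46 and 1.16, and the genotypes overlapped. The overlap came from Cebpa_fl/fl library 1, where 3.0 counts on a processed transcript of 347 bases gave 0.44 of the 1.16 TPM. The coding transcript Aldh1l2-201 was apart and higher in Cebpa_ASKO, at 0.258, 0.434 and 0.41 TPM against 0.565, 0.807 and 0.816 TPM. The processed transcript Aldh1l2-204 overlapped, at 0.46, 0.425 and 0.296 TPM against 0.415, 0.653 and 0.346 TPM. The gene had between 86 and 177 estimated counts in a library, and 1056 of its exon bases lie within *D10Wsu102e* on the opposite strand, which had between 1918.5 and 3124.8 counts. Whether the counting used strand is not given in the sources used here, so reads of these 2 genes may not be fully told apart. The ratio of *Aldh1l2* to *Aldh1l1* TPM was 0.0181, 0.0144 and 0.00756 in the controls and 0.101, 0.127 and 0.0757 in Cebpa_ASKO, apart in every library, and *Aldh1l1* stayed the more abundant of the pair.

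Of all 16069 genes tested, 5.23% passed the threshold, 3.84% lower and 1.39% higher in Cebpa_ASKO. Of the 8 members that did not choose the list, 1 passed lower and 0 higher by edgeR, and nothing is read from so small a count. At an unadjusted p below 0.05 there were 2 lower and 2 higher, where 10.4% of all tested genes were lower and 9.44% higher. By DESeq2 there was 1 of each, where 6.7% of the 16964 genes with an adjusted p were lower and 3.98% higher. Libraries of the genotypes did not overlap for 5 of the 10 members, 3 lower and 2 higher, where 26.1% of all tested genes were apart, 13.2% lower and 12.9% higher. The 3 that were lower include the 2 that chose the list. The median log2 fold change of the 8 was -0.19 and that of all tested genes 0.03. All 10 members passed the filter on low counts.

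Compared per length, the genes differed widely in level in Cebpa_fl/fl iWAT, although several neighbours in the order overlapped. *Phgdh* was the highest at 88.3 ± 28.5 TPM and *Aldh1l1* next at 72.3 ± 18.4 TPM, with overlapping libraries. *Psat1* followed at 38.1 ± 6.56 TPM, below every library of both. *Psph* (24.6 ± 7.97 TPM), *Mthfd1* (15.8 ± 0.914 TPM) and *Shmt2* (15.2 ± 0.599 TPM) overlapped each with the next. *Shmt1* (9.18 ± 0.867 TPM) and *Mthfd2* (7.42 ± 1.55 TPM) stood below them and overlapped with each other. *Mthfd1l* (1.57 ± 0.86 TPM) and *Aldh1l2* (0.908 ± 0.23 TPM) were far lower and also overlapped.

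In Cebpa_ASKO iWAT, *Phgdh*, *Aldh1l1* and *Psat1* no longer stood above the other genes. The 6 upper genes lay close together, from *Shmt2* at 18.7 ± 1.68 TPM over *Phgdh* at 16.7 ± 2.2 TPM and *Psph* at 15.4 ± 0.837 TPM to *Aldh1l1* at 12.2 ± 2.91 TPM. Neighbours among these 6 overlapped. *Mthfd2* (9.1 ± 0.412 TPM) and *Shmt1* (8.65 ± 0.643 TPM) came next, and *Aldh1l2* (1.2 ± 0.243 TPM) and *Mthfd1l* (1.08 ± 0.423 TPM) were again the lowest.

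Summed over the 10 genes, TPM came to 243, 289 and 288 in Cebpa_fl/fl and to 106, 112 and 117 in Cebpa_ASKO, 40.9% of the control mean. *Phgdh* and *Aldh1l1* together made up 53.8%, 62.3% and 59.3% of the sum in the controls and 25.3%, 26.8% and 25.4% in Cebpa_ASKO. The serine synthesis genes summed to between 125 and 181 TPM in the controls and between 45.6 and 48.1 TPM in Cebpa_ASKO, and the cytosolic folate genes to between 84.0 and 118 TPM and between 32.5 and 39.8 TPM. The mitochondrial genes summed to 28.7, 23.9 and 22.7 TPM in the controls and to 27.8, 31.1 and 31.5 TPM in Cebpa_ASKO, and overlapped. As *Phgdh* and *Psat1* chose the list, the total and the serine synthesis sum only describe it.

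**Figure D4:**
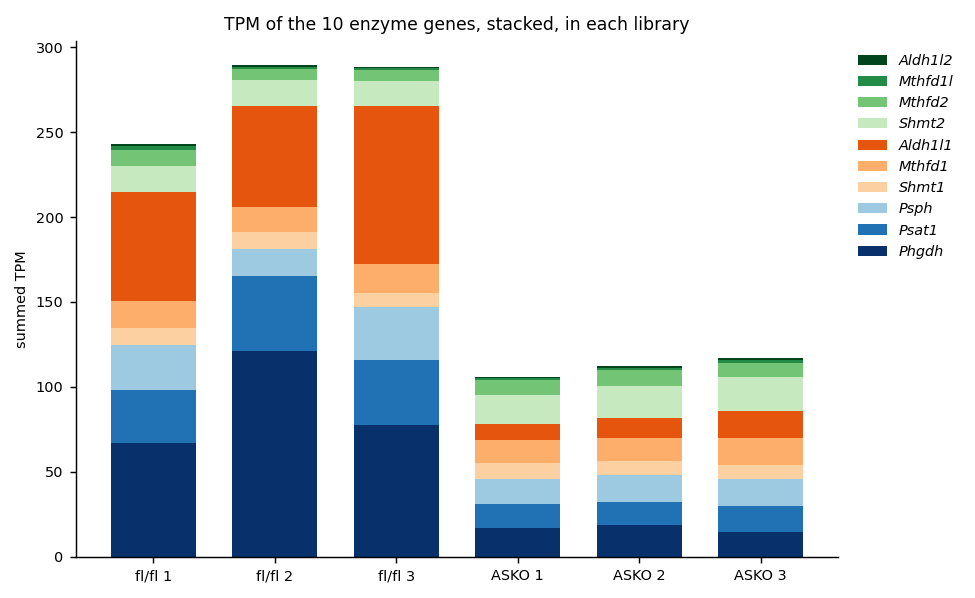
Each bar is 1 library, with the TPM of the 10 genes stacked: serine synthesis in blue, cytosolic folate enzymes in orange and mitochondrial folate enzymes in green. The controls sum to between 243 and 289 TPM and the Cebpa_ASKO libraries to between 106 and 117 TPM, and the difference lies in the bands of *Phgdh*, *Psat1* and *Aldh1l1*, while the green bands differ little.

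The counts of *Phgdh* and *Aldh1l1* rest on 1 main coding transcript each, while those of *Psat1* are spread over several transcripts. Phgdh-201 had 4619.0, 7804.5 and 5027.1 estimated counts in Cebpa_fl/fl and 828.0, 972.4 and 664.4 in Cebpa_ASKO. It made up between 79.6% (Cebpa_ASKO library 3) and 100% of the *Phgdh* TPM. Aldh1l1-201 made up between 84.6% and 91.6% of the *Aldh1l1* TPM in each library. For *Psat1*, the coding transcripts Psat1-201 and Psat1-205 and the retained-intron transcript Psat1-204 each had lower counts and TPM in all Cebpa_ASKO libraries than in any control, with Psat1-204 at 436.0, 559.7 and 481.0 counts against 116.3, 145.2 and 119.2. Psat1-204 made up between 16.2% and 25.1% of the *Psat1* TPM in each library. The annotation holds 20 processed pseudogenes that are 90.4% to 98.7% identical to *Phgdh* over stretches of at least 200 bases. None had more than 2 counts in a library, which is at most 0.21% of the *Phgdh* count. *Psat1* and *Shmt2* have 1 such copy each, with at most 1 count. On the opposite strand, the span of *Cct6a* covers 452 exon bases of *Psph*, *Smcr8* 184 of *Shmt1* and *Ndufa4l2* 32 of *Shmt2*. Spans of the antisense genes *Gm15756* and *Gm34868* cover 1469 exon bases of *Aldh1l1* and 1962 of *Mthfd1*. These spans include introns, and the longest stretch that coding transcripts of *Aldh1l1* share with *Gm15756* was 332 bases. The counts of *Gm15756* and *Gm34868* were not used here. Without strand, reads from bases that both genes of a pair transcribe cannot be told apart.

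Among the 40 tested genes of the other pathway lists (46 in all, for serine and glycine use, folate cycle and transport, and methionine cycle and methyl transfer), 6 fell and 1 rose, and their median log2 fold change was 0.00. The edgeR counts stand beside the 3.84% lower and 1.39% higher of all genes it tested. DESeq2 called 9 lower and 4 higher, beside 6.7% and 3.98% of all genes to which it gave an adjusted p. Leaving out 1 library gave between 2 calls (without Cebpa_ASKO library 1) and 9 (without Cebpa_fl/fl library 2), with 4 without Cebpa_fl/fl library 1, 4 without Cebpa_fl/fl library 3 and 3 without Cebpa_ASKO library 2. The genes that use serine and glycine held the most calls, with 3 of 14 lower and 1 higher. *Cth*, cystathionine gamma-lyase, which splits cystathionine to give cysteine, was at 7.51, 12.5 and 10.3 CPM in the controls and at 1.30, 1.43 and 1.14 CPM in Cebpa_ASKO. It fell by 2.97 on the log2 scale (SE 0.243, adjusted p = 0.00153, edgeR). *Cbs*, cystathionine beta-synthase, the step before it, which condenses serine with homocysteine, was at 13.8, 21.6 and 17.5 CPM and at 4.28, 6.64 and 3.68 CPM. It fell by 1.86 (SE 0.272, adjusted p = 0.0130, edgeR), and the call was lost under 2 of 15 alternatives, 1 of them without Cebpa_ASKO library 1 (adjusted p = 0.0818). For both steps of the route from serine to cysteine, the genotypes did not overlap.

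*Gldc*, the decarboxylase of the glycine cleavage system, was low, at 1.96, 1.53 and 3.14 CPM against 0.380, 0.230 and 0.628 CPM. It fell by 2.40 (SE 0.461, adjusted p = 0.0349, edgeR), a call that was lost under 5 of the 12 alternatives it could be tested in. The other proteins of that system did not pass, *Amt* at a log2 fold change of 0.57 (adjusted p = 0.292), *Gcsh* at 0.00 (adjusted p = 0.994) and *Dld* at 0.00 (adjusted p = 0.998), by edgeR; these 3 were named after their values were seen. *Pipox*, the peroxisomal oxidase that makes glycine from sarcosine, was at 0.802, 0.699 and 1.12 CPM in the controls and at 2.76, 2.63 and 2.60 CPM in Cebpa_ASKO. It rose by 1.60 (SE 0.258, adjusted p = 0.0187, edgeR), and the call was lost under 6 of 15 alternatives.

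Of the 15 tested genes of the folate cycle and folate transport, 1 fell and 0 rose by edgeR, with a median of -0.05 (3 lower and 1 higher at an unadjusted p below 0.05, 2 lower and 1 higher by DESeq2). *Slc19a1*, the reduced folate carrier of the plasma membrane, was at 18.8, 16.2 and 24.6 CPM in the controls and at 11.9, 10.7 and 11.8 CPM in Cebpa_ASKO. It fell by 0.79 (SE 0.167, adjusted p = 0.0465, edgeR), a call that lay at the threshold and was lost under 9 of 15 alternatives. Of the 11 tested genes of the methionine cycle and methyl transfer, 2 fell and 0 rose by edgeR, with a median of 0.02 (3 lower and 1 higher both at an unadjusted p below 0.05 and by DESeq2). *Nnmt*, nicotinamide N-methyltransferase, which uses up methyl groups of S-adenosylmethionine and is abundant in fat, was at 92.3, 146 and 86.5 CPM in the controls and at 9.86, 8.20 and 11.7 CPM in Cebpa_ASKO. It fell by 3.45 (SE 0.251, adjusted p = 0.000973, edgeR), more than any member. *Ahcyl2*, a relative of S-adenosylhomocysteine hydrolase, was at 110, 141 and 122 CPM against 83.1, 64.4 and 77.1 CPM, and fell by 0.74 (SE 0.136, adjusted p = 0.0309, edgeR), a call lost under 8 of 15 alternatives.

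**Figure D5:**
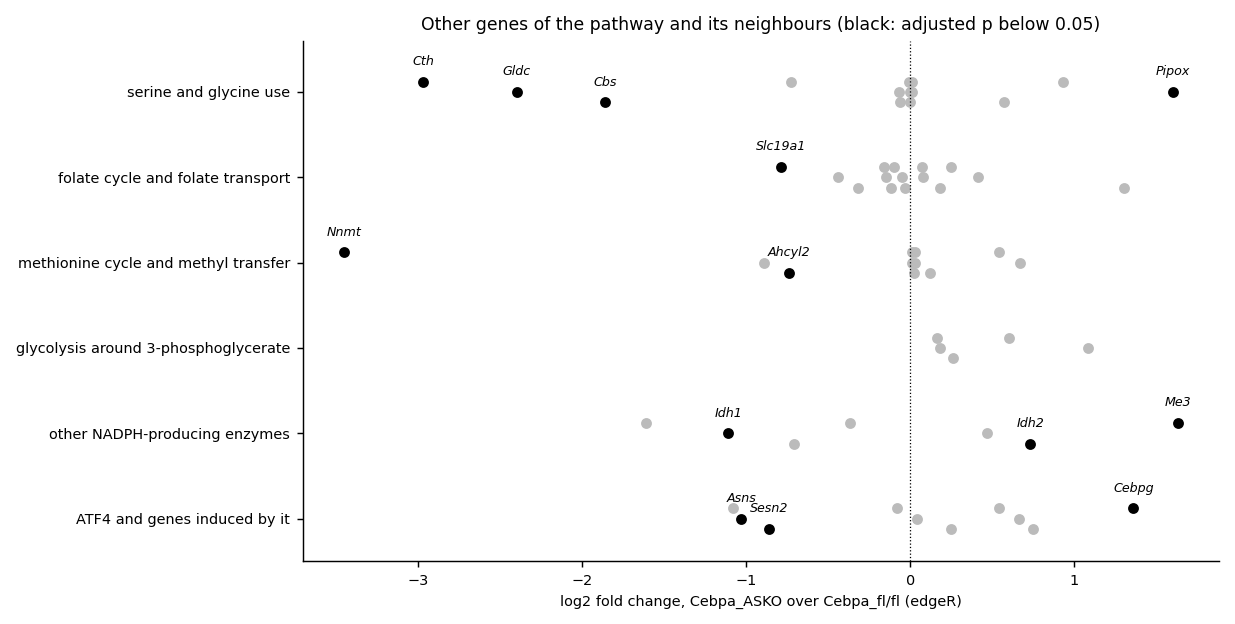
Each dot is 1 tested gene of 6 further lists, placed by its log2 fold change, Cebpa_ASKO over Cebpa_fl/fl, with 3 libraries per genotype. Black dots with names passed the threshold of 0.05 over all tested genes, and in the 3 lists of the pathway's other genes these were *Cth*, *Gldc*, *Cbs*, *Slc19a1*, *Nnmt* and *Ahcyl2* lower and *Pipox* higher.

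The glycolytic enzymes around 3-phosphoglycerate, the point at which the serine branch leaves, did not pass the threshold by edgeR (0 of 5 in either direction, median 0.26). All 5 had a log2 fold change above 0, and 3 were apart and higher, where 12.9% of all tested genes were. They summed to between 1708 and 3060 CPM in the controls and between 3620 and 5039 CPM in Cebpa_ASKO. At an unadjusted p below 0.05, and by DESeq2, 1 of the 5 was higher. *Gapdh*, the highest of the 5 by TPM, was at 1398, 785 and 1365 CPM in the controls and at 2082, 1713 and 1603 CPM in Cebpa_ASKO (log2 fold change 0.60, adjusted p = 0.257, edgeR). Among 7 other enzymes that make NADPH, the second product of *Aldh1l1*, 1 fell and 2 rose by edgeR, and DESeq2 called 2 lower and 2 higher. *Idh1*, the cytosolic isocitrate dehydrogenase, fell from 435 ± 77.4 CPM to 201 ± 9.19 CPM (mean and SD; log2 fold change -1.11, adjusted p = 0.0101, edgeR). Its mitochondrial counterpart *Idh2* rose from 112 ± 13.5 to 186 ± 32.1 CPM (0.73, adjusted p = 0.0491, edgeR), and *Me3*, a mitochondrial malic enzyme, from 4.47 ± 1.7 to 13.9 ± 3.12 CPM (1.63, adjusted p = 0.0332, edgeR). The calls of *Idh2* and *Me3* were each lost under 6 of 15 alternatives, and that of *Idh1* under 2.

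The gene of ATF4 and 10 genes known to be induced by it were described because several members are its targets elsewhere. Of these, 10 were tested, of which 2 fell and 1 rose by edgeR, with a median of 0.14. DESeq2 called 2 lower and 4 higher, the same counts as at an unadjusted p below 0.05. Of the 10, 2 were apart and lower and 4 apart and higher in Cebpa_ASKO, where 13.2% and 12.9% of all tested genes were. *Atf4* itself was at 134, 112 and 108 CPM in the controls and at 156, 137 and 129 CPM in Cebpa_ASKO (log2 fold change 0.25, adjusted p = 0.320, edgeR; named after its values were seen). *Asns*, asparagine synthetase, was at 70.5, 75.9 and 77.1 CPM against 43.1, 31.0 and 35.6 CPM and fell by 1.03 (SE 0.13, adjusted p = 0.00759, edgeR). *Sesn2*, a stress-induced inhibitor of mTORC1, fell by 0.86 (SE 0.157, adjusted p = 0.0295, edgeR), a call lost under 7 of 15 alternatives. *Cebpg*, a C/EBP family member that pairs with ATF4 and lies close to *Cebpa*, was at 71.7, 83.4 and 75.5 CPM against 225, 199 and 166 CPM and rose by 1.36 (SE 0.135, adjusted p = 0.00316, edgeR). The list thus held calls in both directions.

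Marker genes of several cell types moved with the genotype beside these results. The 10 adipocyte markers were all detected in all libraries. They summed to between 28737 and 36083 CPM in Cebpa_fl/fl and between 7745 and 9503 CPM in Cebpa_ASKO, 7 of 10 fell, 9 of 10 were apart, and their median log2 fold change was -1.81. Single markers ranged in log2 fold change from -9.85 (*Retn*) to -0.43 (*Lep*). The 6 hepatocyte markers, of a tissue with high *Aldh1l1*, summed to between 1537 and 2951 CPM and between 250 and 756 CPM, nearly all of it *Cyp2e1*, which fat also expresses. *Ttr* had at most 1 count, *Apoa1* was at most 0.466 CPM, *F2* at most 0.562 CPM, and *Alb* was at 24.6, 32.5 and 31.5 CPM in the controls and at 5.48, 5.41 and 0.988 CPM in Cebpa_ASKO. *Serpina1a*, of a family of near-identical genes, was at most 0.735 CPM in the controls and at 0 in all 3 Cebpa_ASKO libraries. Of the 5 tested, these 2 fell by edgeR (*Alb* by 2.91 on the log2 scale, adjusted p = 0.0374), and DESeq2 called 4 lower. Endothelial markers (6) summed to between 334 and 387 CPM and between 237 and 316 CPM, with 4 of 6 apart. By edgeR 1 fell, and DESeq2 called 3 lower.

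Other marker lists were higher in Cebpa_ASKO. Skeletal muscle markers summed to between 547 and 732 CPM in the controls and between 1839 and 5347 CPM in Cebpa_ASKO, with 8 of 10 higher by the test. Mammary epithelial markers summed to between 695 and 1486 CPM and between 1900 and 2061 CPM, with 0 of 9 tested passing by edgeR (7 higher at an unadjusted p below 0.05 and 4 by DESeq2), 9 of 9 above 0 in log2 fold change, and the milk gene *Wap* at no more than 1 count. Schwann cell markers summed to between 123 and 184 CPM and between 233 and 337 CPM, with 2 of 6 higher by the test. Macrophage markers (1034 to 2805 CPM and 1690 to 2287 CPM) and fibroblast and progenitor markers (4451 to 8429 CPM and 6298 to 7558 CPM) overlapped, with 0 of 8 passing in each list by edgeR, at an unadjusted p below 0.05 and by DESeq2, and Cebpa_fl/fl library 2, the one with low *Psph*, had the highest sum of both. The part of any of these cell types in the levels of the 10 genes, or of the other genes described here, such as *Idh2* and *Me3*, was not tested.

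The genes whose profile over the 6 libraries was most like that of *Phgdh* were sought among 12639 genes with a mean of at least 1 log2 CPM, by the root mean square difference of centred log2 CPM. They were *Eepd1* (difference 0.0882), *Sucnr1* (0.112), the receptor for succinate, and *Glb1l2* (0.125). *Eepd1* was at 48.5, 74.7 and 52.6 CPM in the controls and at 11.3, 11.7 and 8.10 CPM in Cebpa_ASKO. Like *Phgdh*, it was highest in Cebpa_fl/fl library 2 and lowest in Cebpa_ASKO library 3. The search picks genes for such likeness, genotype difference included, so the likeness is a description only. The genes most like *Psat1* were *Fah* (0.0519), the last enzyme of tyrosine breakdown, *Tmem43* (0.0775) and *Dram1* (0.0927). *Fah* was at 87.2, 119 and 110 CPM against 40.9, 34.2 and 38.2 CPM. The difference between *Phgdh* and *Psat1* was 0.633, and that between *Phgdh* and *Aldh1l1* 0.557.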

How the data were processed

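Whole-iWAT RNA from 3 Cebpa_fl/fl and 3 Cebpa_ASKO mice was analysed, with groups and replicate numbers taken from the sample labels. The authors deposited estimated counts and TPM for each transcript, as kallisto gives them, with the effective transcript length, and a table of TPM per gene symbol. The submitters' processing notes name kallisto 0.44.0 and the builds GRCm38.p6 and GRCh38.p12, without their roles. Whether strand was used is not given in the sources used here. Libraries held 33141769 to 49477671 estimated counts, and precision at this depth covers counting error only.

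Transcripts were matched to GENCODE M21 by identifier (116816 of 118489, or 98.6%), and estimated counts were summed per symbol and rounded. Unmatched transcripts held 0.42% to 0.45% of each library. Cebpa_ASKO was compared with Cebpa_fl/fl by edgeR 4.0.16 (quasi-likelihood test, TMM, filterByExpr), with Benjamini-Hochberg adjustment over 16069 genes and a threshold of 0.05. TPM, used for levels and ratios between genes, is the authors' gene table. Values are mean ± SD, with n = 3 per genotype. Exact permutation of 3 against 3 libraries could not go below p = 0.1 and was not used. No pair of libraries was a repeat of another, since chi-square over genes, divided by its degrees of freedom, was between 25.9 and 224 within genotypes. The paper's methods describe mice of both genotypes as littermates, but no source says which of these mice shared a litter. Nor does any say that mice of 1 genotype were from separate litters. The mice were treated as independent, and the test set the genotype difference against the variation between mice within genotypes.

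The members and gene lists were chosen with earlier results of these data known. Named genes are all members, every called gene of the other lists, the highest by TPM of a list with none called, *Cebpa*, and the 3 genes of nearest profile to *Phgdh* and *Psat1*, without predicted or Rik symbols. Exceptions are marked, and marker lists are given by their defining genes. 1 lymphocyte marker is not reported here.

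The alternatives were DESeq2 1.42.0, its size factors in edgeR, total counts, a filter of 1 count in total or of 10 in each library, limma 3.58.1 on log2(TPM + 1) or log2(TPM + 0.1) for genes of at least 1 TPM in 3 libraries, limma without that filter, the replicate number as a block, and each library left out. A pseudocount understates changes of low genes. The edgeR procedure was tested on simulated data. R 4.3.3, Python 3.11.15, pandas 2.3.3, numpy 2.4.6, scipy 1.17.1 and matplotlib 3.10.9 were used. Promoters are RefSeq's, matched by symbol for 9 of 10 members.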

Additional observations from a re-analysis of the deposited data

How the results depend on the processing

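Each log2 fold change was recomputed under 15 alternatives. *Phgdh* (-2.63 to -2.26), *Psat1* (-1.50 to -1.31) and *Aldh1l1* (-2.81 to -2.42) kept their direction under all of them, and *Aldh1l1* its call (adjusted p from 5.58e-27 to 0.0191, DESeq2, edgeR or limma). *Mthfd1l* turned from -0.45 to 0.03 without Cebpa_fl/fl library 1 (-0.78 to 0.03 with a library left out). Calls were gained by *Psph* without Cebpa_fl/fl library 2 (adjusted p from 0.00329 to 0.398 over its alternatives), by *Mthfd2* without Cebpa_fl/fl library 1 (0.0334 to 0.628) and by *Aldh1l2* under DESeq2 (0.00665 to 0.629). Counts were lowest for *Mthfd1l* (76 to 290 a library) and *Aldh1l2* (86 to 177).

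Of the 8 other members, 1 was called, 2 under DESeq2, and 1 to 2 with a library left out. The calls over all genes went from 840 to 1813 under DESeq2, 370 with the replicate block, 359 by limma without a filter, and 311 to 922 with a library left out (311 without Cebpa_ASKO library 1, 363 without Cebpa_ASKO library 2, 508 and 502 without Cebpa_fl/fl libraries 1 and 3). The calls in the other one-carbon lists went from 7 to 13, 4 and 3 under DESeq2, the block and limma without a filter, and 2 to 9 with a library left out. The cause was not tested. Same-numbered libraries did not deviate together (r = 0.063, 0.029 and -0.177 across genes), so the numbers were not taken to pair the mice. Lower calls were 73.5% of all calls in the main analysis, 62.7% under DESeq2, 66.3% with total counts, 80% with the replicate block and 69.1% to 89.4% with a library left out (89.4% without Cebpa_ASKO library 1, 87.2% without Cebpa_fl/fl library 1).

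TPM summed over matched transcripts, and ratios of CPM in place of TPM, moved no value by more than the replicate SD (the *Aldh1l2* to *Aldh1l1* ratio changed by 2.92 in TPM and 3.41 in CPM, log2). Searched on the gene's strand only, TTGCNNAA, TGATGNAA, TGACNNNGC and CCAAT were in 5.8%, 2.12%, 6.38% and 21.1% of all windows, TGACNNNGC in 0 members and CCAAT in 3, since 1 strand holds fewer matches.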
